A study of Saccharomyces cerevisiae with 50 samples.

Results

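The first and the second G2/M wave of a synchronised yeast time course were set against each other gene by gene. The first wave was taken as the arrays labelled 45 and 50 min after release from alpha factor, and the second as those labelled 115 and 120 min, about one 71-min cell cycle period later. Each wave holds 4 arrays, so 8 of the 50 arrays of the series entered the comparison, and another 8 (15 and 20 min, 85 and 90 min) gave the level before each wave. The strain is budding yeast (Saccharomyces cerevisiae) with a deletion of YOX1, which encodes a homeodomain repressor that acts with Mcm1. All samples of both waves carry the deletion, were arrested by alpha factor, the mating pheromone that stops cells in G1, and were released into YEPD, a rich glucose medium. RNA of each time point carried Cy5, and the common reference, RNA from wild-type cells growing asynchronously in the same medium, carried Cy3. Every level below is a log2 ratio of the time point over that reference, centred on the median of its array, so a level of 1 is a ratio of 2 and a level of 0 equals the reference. A time course of wild-type cells was not analysed here, so a difference between the waves cannot be assigned to the deletion.

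Each time point has an array in set 1 and an array in set 2, and the design text calls these repeats technical. The 2 arrays of a time point were therefore averaged, which leaves n = 2 time points per wave. P-values measure the spread between neighbouring time points of a wave, not between cultures. The 8 arrays held values for 5871 to 6082 open reading frames. No intensities were used here, so the number of arrays limits the precision. Pearson's r over all genes (genes are no independent replicates) was 0.55 to 0.76 for the 2 arrays of one time point, and 0.61 to 0.83 for arrays of opposite waves within a set. The titles carry a date, and set 1 and set 2 share no date among the 8 arrays. Whether both sets hold RNA of the same culture is not given in the sources used here. In set 2 each wave has a date of its own. In set 1, the arrays of 45, 50 and 120 min share a date and that of 115 min has another. A value within 1 date thus exists for set 1 alone, the array of 120 min against those of 45 and 50 min. The alternative with title date as a factor took each of the 8 arrays as a sample. Unlike the main test, its counts therefore treat technical repeats as samples. The RNA came from whole cultures, in which fewer cells of a type and less RNA per cell cannot be told apart.

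In budding yeast, the transcription factors Mcm1 and Fkh2 with the coactivator Ndd1 switch on the CLB2 cluster as cells pass from G2 into mitosis. This cluster encodes the mitotic cyclins, the polo kinase Cdc5 and the transcription factor Swi5. At mitotic exit, Swi5 enters the nucleus and switches on genes of the SIC1 cluster, which encodes the cyclin kinase inhibitor Sic1 and proteins that separate daughter from mother cells. Late in G1, the factors MBF and SBF switch on genes of DNA replication and of budding.

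The probe of the deleted gene was looked at first. YOX1 read -0.74 and -0.02 at 45 min, -0.83 and -0.47 at 50 min, -1.12 and -0.65 at 115 min, and -1.07 and -0.94 at 120 min (set 1 and set 2 in each case). All 8 values lay below the reference, though not far below it, and the ranges of the waves overlapped. The difference, second minus first wave, was -0.43 ± 0.115 (SE), which missed the threshold (limma adjusted p = 0.0949). Whether the probe lies within the deleted part is not given in the sources used here. YHP1, which encodes the close relative of Yox1, differed by 0.21 and MCM1 by 0.13, and neither was called.

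No gene of the CLB2 cluster, which defines the wave, passed the test for a different level. Of its 26 measured members, 0 were called different between the waves by limma at an adjusted p under 0.05, and 2 had an unadjusted p under 0.05. Over all 6058 genes tested, 249 were called (4.11%), of which 111 were higher in the second wave (1.83%) and 138 lower (2.28%), and 1340 had an unadjusted p under 0.05. The median level of the cluster was 0.53 in the first wave and 0.45 in the second, with a median difference of -0.07 against 0.004 over all genes tested. The sign of this median was not stable: it was 0.003 without 50 min, 0.012 with title date as a factor, 0.095 with 35, 45 and 50 against 105, 115 and 120 min, 0.13 with 35 to 50 against 105 to 120 min, and -0.21 with 110 and 115 min as the second wave. Levels above the reference were found for 25 of the 26 genes in each wave.

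CLB2, which encodes the main mitotic cyclin, read 0.21 and 0.38 at 45 min, 0.34 and 0.76 at 50 min, 0.16 and 0.33 at 115 min, and 0.51 and 0.49 at 120 min. The 2 waves overlapped, and the later time point of each wave had the higher mean. The difference was -0.05 ± 0.131 (SE), with a 95% interval of -0.36 to 0.26. CDC5, the polo kinase, read 0.40, 0.63, 0.57 and 0.78 in the first wave (45 min set 1, 45 min set 2, 50 min set 1, 50 min set 2) and 0.38, 0.29, 0.65 and 0.56 in the second (115 and 120 min in the same order). Its waves overlapped, with a difference of -0.13 ± 0.12. SWI5 read 0.34, 0.52, 0.43 and 0.60 in the first wave and 0.15, 0.72, 0.55 and 0.82 in the second, a difference of 0.09 ± 0.111.

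In the first wave the highest mean levels in the cluster were those of ALK1, which encodes a haspin-like kinase, and HST3, a histone deacetylase of the sirtuin family. ALK1 had a mean of 1.29 in the first wave and 1.08 in the second, and HST3 means of 1.14 and 0.99, with CHS2 at 1.03 between them in the second wave. The cytokinesis genes went both ways without passing the test: CHS2, the chitin synthase of the primary septum, differed by 0.27 (interval -0.14 to 0.68), HOF1, an F-BAR protein of the bud neck, by -0.33 (-0.75 to 0.10), and MYO1, the type II myosin of the contractile ring, by -0.26 (-0.48 to -0.04). Among the 26 members the differences ran from -0.45 to 0.27, with 20 of them negative, and their 95% intervals stayed within -0.75 and 0.68. An interval is the range of differences that the values allow and no limit of detection. A missed threshold does not show that the levels were equal. Leaving out single time points changed these calls: 3 members were called lower without 45 min and 1 higher without 50 min.

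Of the 6 genes on the list of G2/M transcription factors (YOX1, YHP1 and MCM1 among them) 0 were called by limma. An unadjusted p under 0.05 was found for 4, and the median difference was -0.26. YOX1 is deleted in this strain, and its probe value (-0.43) enters the count and the median without being the level of a working factor. FKH1 had a mean of 0.84 in the first wave and 0.50 in the second, a difference of -0.34 ± 0.0865 (limma adjusted p = 0.0834). FKH2 differed by -0.28 ± 0.103 and NDD1 by -0.24 ± 0.0914, both not called. Of 18 spindle and S/G2 genes 0 were called, with a median difference of -0.18. Of 19 regulators of anaphase and mitotic exit, AMN1, an antagonist of the mitotic exit network, was the 1 called. Of 10 condensin and cohesin genes, the condensin subunit BRN1 was the 1 called, with a mean of 0.10 in the first wave and -0.50 in the second (difference -0.59 ± 0.0842, limma adjusted p = 0.0187). The median difference of these 10 was -0.03, and its sign turned without 45 min (0.081). Among all genes tested, 1.83% were called higher and 2.28% lower. The 9 histone genes had 0 calls and differences of at most 0.17 in size. The plot of levels in the 2 waves shows the CLB2 cluster along the line of equal level.

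**Figure D1:**
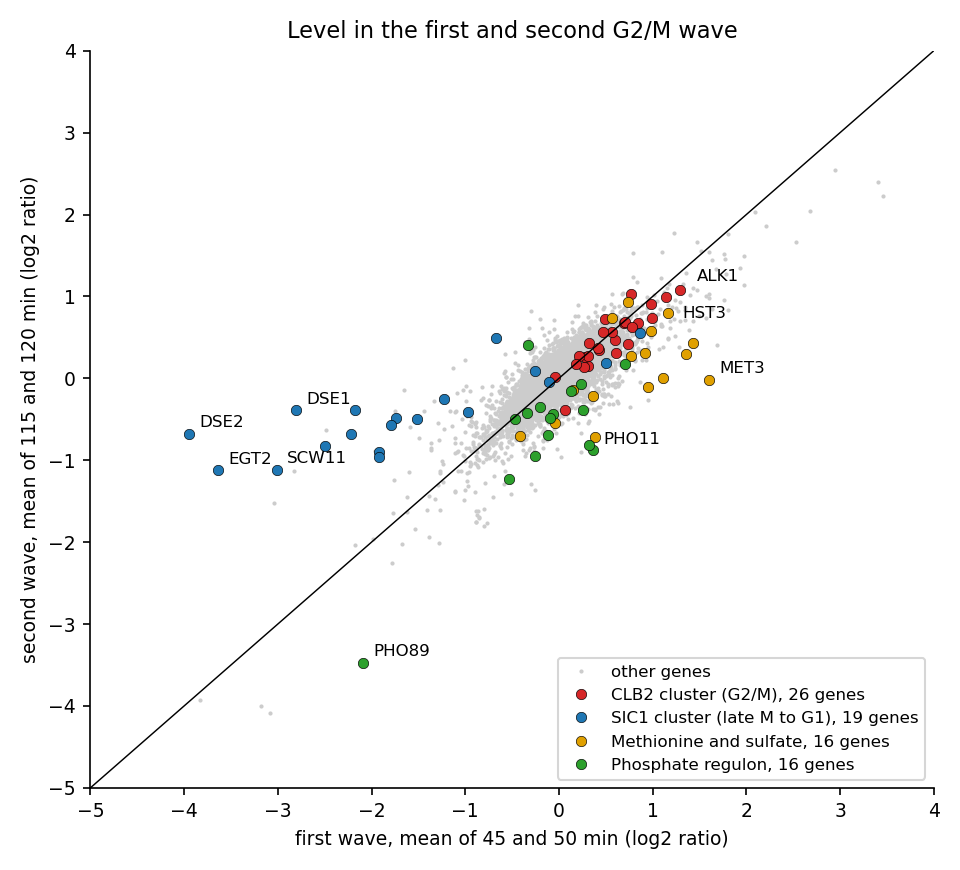
Mean log2 ratio to the asynchronous wild-type reference in the first wave (x axis, 45 and 50 min) against the second wave (y axis, 115 and 120 min), one point per gene, with 4 gene lists in colour and the line of equal level in black. The 26 CLB2 cluster genes lie along the line, most SIC1 cluster genes lie far above it on the left, and most methionine and phosphate genes lie below it.

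The group that set the waves apart was the SIC1 cluster, the genes of mitotic exit and early G1. Of its 19 measured members, 15 were called higher in the second wave and 0 lower, against 1.83% and 2.28% of all genes tested. The median level was -1.80 in the first wave and -0.48 in the second, and the median difference was 1.16 against 0.004 over all genes tested. The 4 arrays of one wave lay wholly outside those of the other for 15 of the 17 members measured on all 8 arrays, against 641 of 5446 genes in all (11.8%). The cluster was thus far below the reference in the first wave and nearer to it in the second, and 4 of 19 members lay above the reference in the second wave, against 2 in the first.

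The largest differences belonged to genes of daughter cell separation. DSE2, a daughter-specific gene for a secreted protein of cell separation, read -4.15, -3.60, -4.06 and -3.97 in the first wave and -0.59, -0.30, -1.21 and -0.61 in the second. The lowest value of the second wave was more than 2 units above the highest of the first. The difference was 3.27 ± 0.158 (SE; limma adjusted p = 0.000725), 9.66-fold higher in the second wave. EGT2, a gene of cell separation after cytokinesis, read -3.63, -3.86, -3.35 and -3.71 in the first wave and -0.98, -1.46, -0.79 and -1.25 in the second, a difference of 2.52 ± 0.117 (limma adjusted p = 0.000725). DSE1 rose by 2.43, the glucanase gene SCW11 by 1.89, DSE3 by 1.79 and the glucanase gene DSE4 by 1.68. For DSE4 the array of 115 min in set 1 gave no value.

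SIC1 itself, which holds back B-type cyclin kinase activity until late G1, read -1.59, -1.52, -1.54 and -1.39 in the first wave and -0.61, -0.63, -0.22 and -0.50 in the second. Both waves were below the reference on every array, and they did not overlap. The difference was 1.02 ± 0.112 (limma adjusted p = 0.00958). RME1, which encodes a repressor of meiosis, rose by 1.54 ± 0.1, ASH1, the daughter cell repressor of HO, by 1.26, and PCL9, a cyclin of the Pho85 kinase, by 1.23. The cell wall genes PST1, HSP150 and PIR1 rose by 1.16, 0.98 and 0.96, the bud site gene BUD9 by 0.56 and NIS1 by 1.01. The 4 members not called were CTS1, the chitinase gene, with a difference of 0.06, CIS3 with -0.32, PIR3 with -0.32 and the Pho85 cyclin gene PCL2 with 0.34.

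Targets of other factors of M/G1 and G1 joined the rise singly. Among all genes tested, 1.83% were called higher. HO, the mating-type endonuclease, read -2.31, -2.76, -2.29 and -2.56 in the first wave and -0.31, -0.76, -0.49 and -0.95 in the second. Its groups did not overlap, and the difference was 1.85 ± 0.103 (limma adjusted p = 0.000902). AMN1 rose by 1.70 ± 0.125, from a mean of -2.83 to -1.13. FAR1, the inhibitor that holds pheromone-treated cells in G1, rose by 1.08, the 1 called of 12 genes with early cell cycle boxes or for the MCM helicase. The G1 cyclin CLN2 rose by 0.66 ± 0.11, so that CLN2 and HO were the 2 called of 13 SBF targets. POL12, a subunit of DNA polymerase alpha, was the 1 called of 20 MBF targets (0.50 ± 0.0896). The MBF count was 7 without 45 min, 2 without 50 min, and 0 without 115 min, without 120 min, with matched time pairs as a replicate block, with title date as a factor, with set 1 alone and with any 1 array left out except that of 45 min in set 1 (3). The cell wall gene PRY3 rose by 1.52, NCW2 by 1.04 as the 1 called of 9 mannoprotein genes, and INA1 by 1.25.

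The SIC1 count depended on the samples. It was 12 without 115 min, 6 without 120 min, and 7 without the array of 50 min in set 1 or that of 45 min in set 2. It was 12 with title date as a factor and 7 with matched time pairs as a replicate block, and the median difference within the 1 date was 1.37. With the spread pooled over all time points it was 4, and over all alternatives the median stayed between 0.98 and 1.58. DSE2, EGT2, DSE3 and RME1 were called under all 27 alternatives listed for this comparison other than another threshold.

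**Figure D2:**
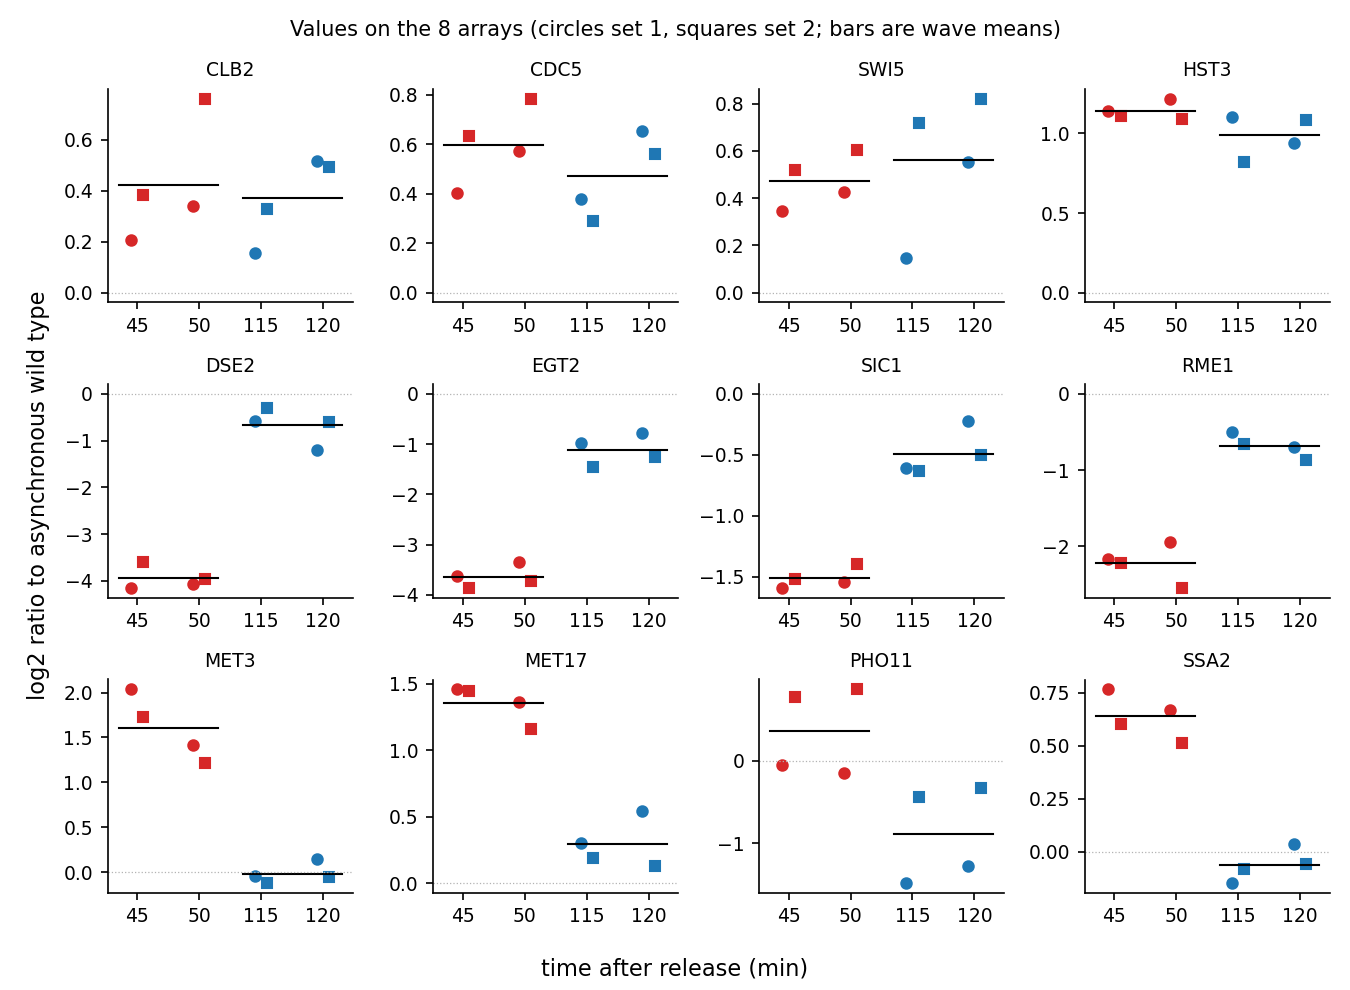
Log2 ratio to the reference (y axis, scaled per gene) on the 8 arrays by time after release (x axis, min) for 12 genes, with circles for set 1, squares for set 2, first wave in red, second wave in blue, and bars for the mean of each wave. The first row shows overlapping waves for CLB2, CDC5, SWI5 and HST3; in the second row DSE2, EGT2, SIC1 and RME1 were higher in the second wave, and in the third row MET3, MET17, PHO11 and SSA2 were lower.

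The whole course places both windows within their cycles. The median of the CLB2 cluster was 0.43 at 45 min and 0.64 at 50 min, and it went on to 0.86 at 60 min before it fell to -0.26 at 85 and 90 min. In the second cycle it stood at 0.38 (115 min) and 0.55 (120 min, the last sample), so the second maximum lies outside the series or at its end. The median of the SIC1 cluster was -1.85 at 45 min and -1.71 at 50 min, and it reached 1.03 at 75 min. It then went down to -0.50 at 110 min, with -0.49 and -0.36 at the 2 times of the second wave. Its lowest level after the mitotic exit of the first cycle was thus well above the levels from 20 to 50 min. With the second wave taken 5 min earlier, at 110 and 115 min, the SIC1 cluster had 10 members called higher and the CLB2 cluster 0 in either direction.

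**Figure D3:**
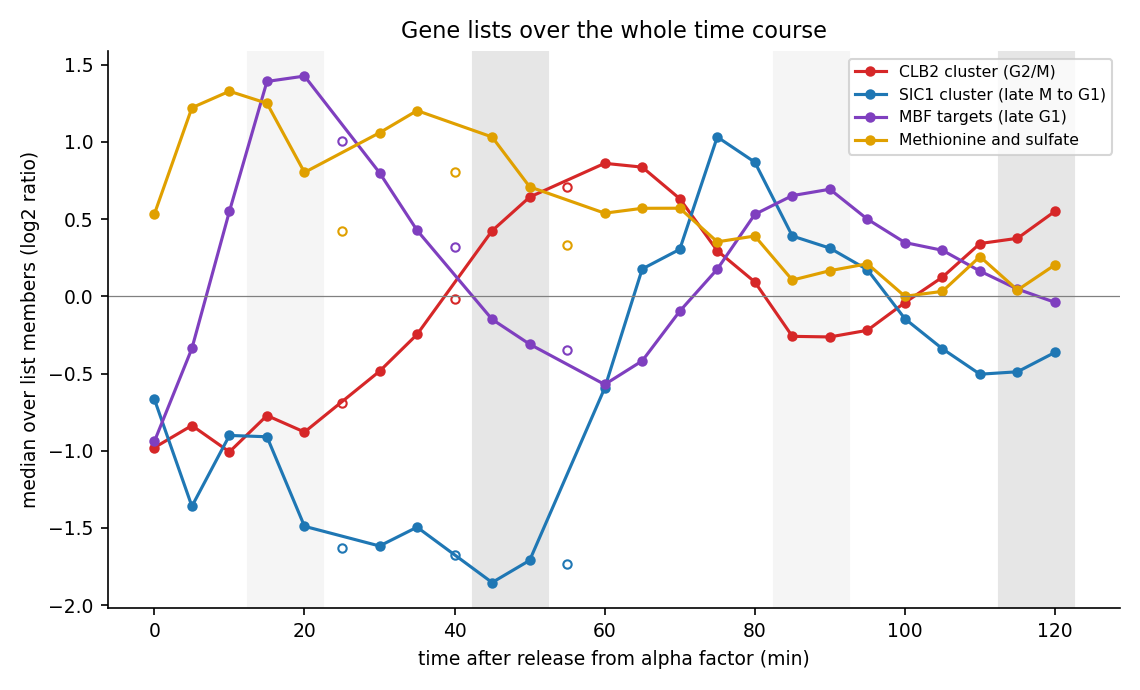
Median log2 ratio over the members of 4 gene lists (y axis) by time after release (x axis, min), with the 2 waves in dark grey and the samples before each wave in light grey. Open circles at 25, 40 and 55 min mark time points whose ratios are more widely spread; the SIC1 cluster median was -1.85 at 45 min and -0.49 at 115 min, while the CLB2 cluster median was 0.43 and 0.38.

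Genes of sulfate assimilation and methionine synthesis were lower in the second wave. Of 16 measured members 8 were called lower and 0 higher, against 2.28% and 1.83% of all genes tested. The median level was 0.84 in the first wave and 0.14 in the second, with a median difference of -0.54. The arrays of the waves did not overlap for 11 of the 16, against 11.8% of all genes measured on all 8 arrays. MET3, ATP sulfurylase, which takes the first step of sulfate assimilation, read 2.04, 1.73, 1.42 and 1.22 in the first wave and -0.04, -0.12, 0.15 and -0.05 in the second. It was thus well above the reference in the first wave and at the reference in the second. The difference was -1.61 ± 0.18 (limma adjusted p = 0.00958).

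MET17, which joins sulfide to the carbon skeleton of homocysteine, read 1.46, 1.45, 1.37 and 1.16 in the first wave and 0.30, 0.19, 0.54 and 0.13 in the second, a difference of -1.07 ± 0.101 (limma adjusted p = 0.007). YLR302C, which overlaps MET17 in the R64 annotation, differed by -1.21, and a spot may read RNA of both. The APS kinase gene MET14 fell by 1.11, the methionine synthase gene MET6 by 1.10, and the sulfite reductase genes MET5 and MET10 by 1.05 and 0.99. SUL2, a sulfate permease, fell by 0.58 and SAM1, an S-adenosylmethionine synthetase, by 0.50. The median of the list had its highest values early, with 1.33 at 10 min, 1.20 at 35 min and 1.03 at 45 min, and lay between 0.001 and 0.26 from 85 min on. The count of 8 became 13 without 50 min, 0 without 115 min and 0 without 120 min, and 0 with the matched time pairs as a block. It was 4 with title date as a factor, where the median difference within the date was -0.42. With 1 array left out it lay between 2 (without 50 min in set 1) and 7, with 3 without 45 min in set 2, 4 without either array of set 2 of the second wave and 5 without either array of set 1 of it.

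The phosphate regulon, the genes of phosphate uptake and storage, had 7 of 16 members lower in the second wave and 1 higher, with a median difference of -0.46. Over all genes tested, 2.28% were called lower and 1.83% higher. PHO11 and PHO12, genes for secreted acid phosphatases, have near-identical sequences, so their spots may read both. PHO11 read -0.05, 0.78, -0.15 and 0.87 in the first wave and -1.48, -0.44, -1.27 and -0.33 in the second. In each set both values of the second wave were lower, and set 2 read about 1 unit above set 1 throughout. The difference was -1.24 ± 0.0944 (limma adjusted p = 0.00293), and that of PHO12 was -1.14. PHO89, the sodium-phosphate cotransporter, read -3.50, -0.70, -3.33 and -0.86 in the first wave and -4.62, -2.04, -5.04 and -2.19 in the second. Its sets stood over 2 units apart, so the waves overlapped across sets, but the difference had the same direction in each (-1.38 ± 0.114, limma adjusted p = 0.00414).

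Among the other phosphate genes, the SPX-domain gene SPL2 fell by 0.69, PHM6 by 0.70, and the polyphosphate genes VTC1 and VTC3 by 0.54 and 0.57. PHM8 was the 1 member higher, from a mean of -0.33 to 0.41 (0.74 ± 0.114, limma adjusted p = 0.023). The count of 7 lower was 3 without 115 min, 3 without 120 min and 3 with the replicate block. With 1 array left out it was 0 without 50 min or 120 min in set 1 or 45 min in set 2, 2 without 115 min in set 1, 4 and 3 without 115 and 120 min in set 2. It was 4 with title date as a factor, with a median difference of -0.44 within the date.

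Heat shock proteins, chaperones that also serve unstressed cells, were lower in the second wave for 7 of 14 members and higher for 0. All 14 differences were negative. Over all 6058 genes tested, 2.28% were called lower and 2977 differences were negative. The median level was 0.61 in the first wave and 0.06 in the second, and the median difference -0.49. SSA2, an Hsp70 chaperone gene, read 0.77, 0.60, 0.67 and 0.51 in the first wave and -0.15, -0.08, 0.03 and -0.06 in the second. The waves did not overlap, and the difference was -0.70 ± 0.0913 (limma adjusted p = 0.0137). SSA1, nearly identical to SSA2 in sequence, fell by 0.69, SSA3 by 0.72, SSA4 by 0.62, the mitochondrial chaperonin gene HSP60 by 0.60, the Hsp110 gene SSE1 by 0.58 and the Hsp90 gene HSC82 by 0.48. The count was 11 without 50 min, and 0 without 115 min, without 120 min, with the replicate block, and without the array of 50 min in set 1, of 45 min in set 2 or of 115 min in set 2. It was 2 to 4 without the array of 45, 115 or 120 min in set 1 or 120 min in set 2, and 2 with title date as a factor (median difference within the date -0.39).

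Glycolytic genes had 4 of 15 lower, 0 higher and all 15 differences negative, with a median level of 0.36 in the first wave and 0.02 in the second. Over all 6058 genes tested, 2.28% were called lower and 2977 differences were negative. The 4 were PGK1 (phosphoglycerate kinase, -0.58), TDH1 (-0.47) and TDH2 (-0.47), 2 of the near-identical genes for glyceraldehyde-3-phosphate dehydrogenase, and PFK1 (phosphofructokinase, -0.43). This count was 0 without 115 min, without 120 min, with title date as a factor and with the replicate block, and at most 2 without any 1 array. With 35 to 50 against 105 to 120 min the direction turned, to 0.69 for PGK1, 0.018 for TDH1 and 0.071 for the median of the list, with 0 called. The high-affinity hexose transporters HXT6 and HXT7, whose sequences are near-identical, fell by 0.63 and 0.58, the 2 called of 9 transporters, of which 0 were called without 115 min or without 120 min. GPD2, glycerol-3-phosphate dehydrogenase, fell by 0.98 ± 0.131.

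In the environmental stress list 4 of 19 members were higher and 1 lower, against 1.83% and 2.28% of all genes tested. The higher ones were GPH1, glycogen phosphorylase (1.13 ± 0.131), TSL1, a subunit of trehalose synthase (0.93 ± 0.0852), GSY2, glycogen synthase (0.77 ± 0.112), and YGP1, a secreted glycoprotein (0.67 ± 0.099). GPH1 read -0.52, 0.24, -0.88 and -0.04 in the first wave and 0.65, 1.17, 0.46 and 1.01 in the second, without overlap. The lower one was the heat shock gene SSA4, which both lists hold. The count of 4 was 9 without 45 min, 0 without 115 min or without 120 min, 0 without the array of 50 min in set 1, 1 without 120 min in set 1 or 45 min in set 2, and 2 without 115 min in set 1 or 120 min in set 2. It was 1 with the replicate block and 2 with title date as a factor.

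Amino acid, one-carbon and iron genes had few calls. Over all genes tested, 1.83% were called higher and 2.28% lower. Of 19 arginine, histidine and lysine genes, HIS4 (-0.64), LYS9 (-0.51) and LYS21 (-0.51) were lower and ARG3, ornithine carbamoyltransferase, was higher (0.46), and all 19 lay above the reference in both waves. The median difference of these 19 was -0.25. Of 14 one-carbon and purine genes, GCV1 (-0.58), ADE17 (-0.57) and SHM2 (-0.51) were lower. Both lists had 0 calls without 115 min, without 120 min, with the replicate block and with title date as a factor. With 1 array left out the amino acid list had 0 calls, except 1 lower without 45 min in set 1 and 3 lower without 50 min in set 2. The one-carbon list likewise had 0, except 1 without 120 min in set 1 and 3 without 50 min in set 2. FIT2, a cell wall mannoprotein of iron uptake, read 1.76, 1.08, 2.68 and 1.24 in the first wave and 1.19, -0.08, 0.72 and -0.19 in the second, and was the 1 called of 14 iron genes (-1.28 ± 0.188, limma adjusted p = 0.02). Its waves overlapped across sets and not within a set, and it was not called without 115 min, without 120 min, with the replicate block or with title date as a factor. Of 14 plasma membrane and nutrient uptake genes, the amino acid permease gene GAP1 was higher (0.51, a call lost when any 1 array was left out), and 3 that the phosphate list also holds were lower (PHO11, PHO12, SPL2). Ribosomal protein genes (131), ribosome biogenesis genes (21), respiratory genes (20) and genes of bud growth and septins (15) had 0 calls in either direction.

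Markers of mating type and of pheromone arrest were also read. Of the 7 a-specific genes 3 were higher in the second wave and 0 lower, against 1.83% and 2.28% of all genes tested. Their median level was -1.36 in the first wave and -0.83 in the second. BAR1, the protease that degrades alpha factor, read -3.31, -2.95, -3.04 and -2.84 in the first wave and -1.79, -1.63, -1.36 and -1.33 in the second. The waves did not overlap, and the difference was 1.51 ± 0.14 (limma adjusted p = 0.00663). The alpha factor receptor gene STE2 rose by 0.76 and the a-factor gene MFA1 by 0.52, and 0 of the 7 lay above the reference in either wave. The MFA1 difference turned to -0.21 with 35 to 50 against 105 to 120 min. The count of 3 was 5 without 50 min and 1 without 115 min, without 120 min, with the replicate block and without 5 of the 8 single arrays (45 and 50 min in set 1, and 45, 115 and 120 min in set 2). The 4 alpha-specific genes had 0 calls and differences of at most 0.07 in size.

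The median difference of 23 pheromone response genes was 0.04 (-0.047 without the array of 50 min in set 1). The agglutinin gene AGA1 was higher by 0.71, the G protein subunit gene GPA1 by 0.55 and SST2, a negative regulator of the pathway, by 0.51. These 3 were called higher and 0 lower, against 1.83% and 2.28% of all genes tested. This count was 5 without 45 min, and 0 without 115 min, without 120 min and without any single array except that of 120 min in set 1 (1) or 50 min in set 2 (3). FUS1, a gene of cell fusion that marks pheromone-treated cells, had a mean of -0.75 in the first wave and -0.85 in the second and was not called.

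**Figure D4:**
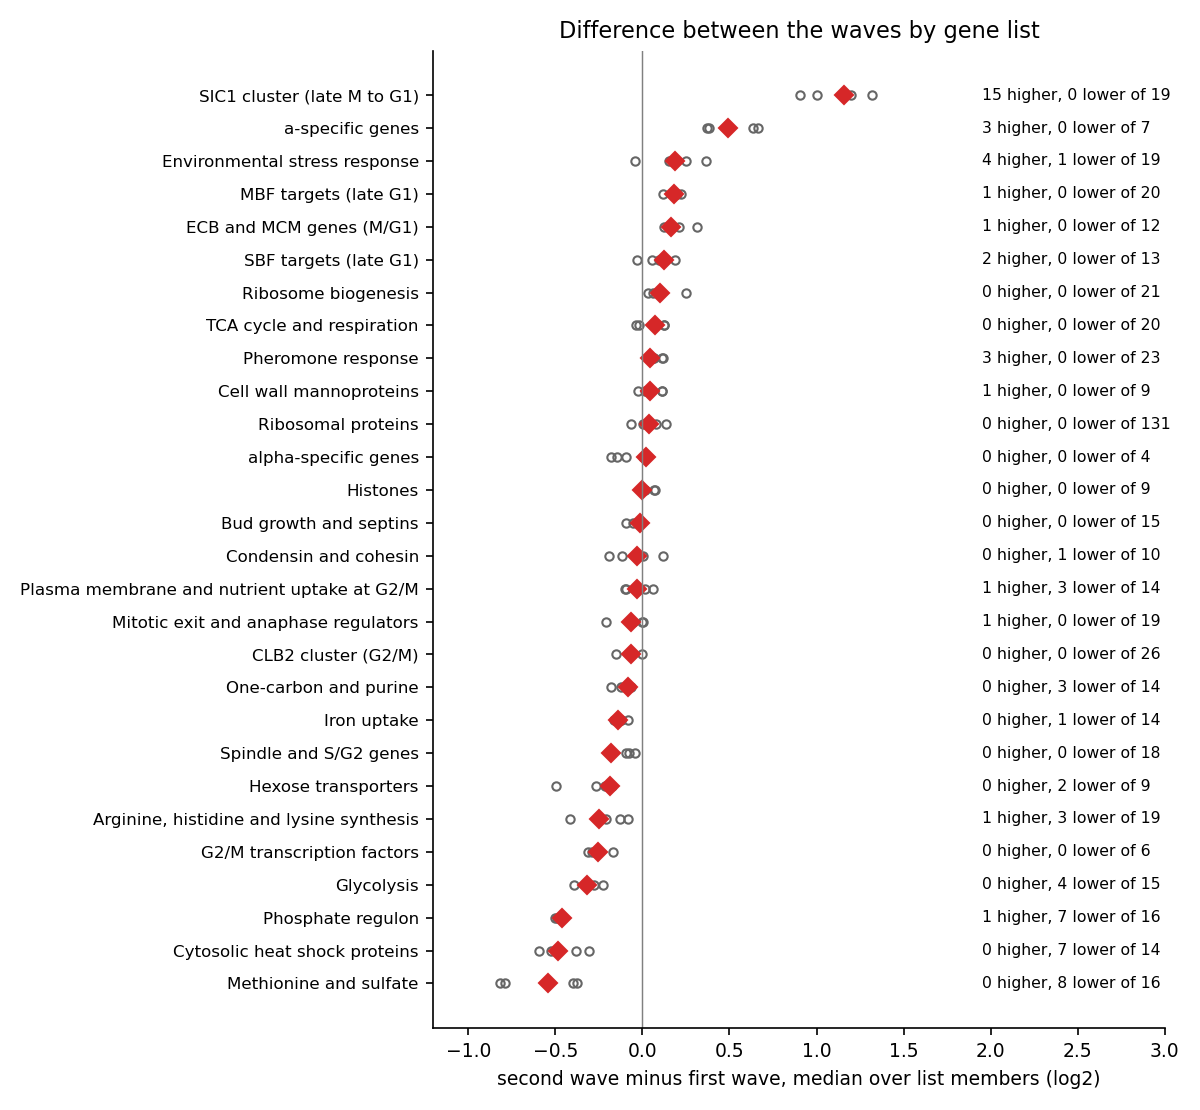
Median difference between the waves over the members of each of 28 gene lists (x axis, log2, second minus first), with a red diamond for the main value and open circles for the 4 matched differences (115 minus 45 and 120 minus 50 min, in each array set). The counts at the right give the members called in each direction; the SIC1 cluster stands at 1.16 and the methionine list at -0.54, and the CLB2 cluster at -0.07.

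Over all genes, the called differences were mostly moderate. Their median size was 0.63, and 23 genes were over 2-fold higher and 14 over 2-fold lower in the second wave. Of the 234 called genes measured on all 8 arrays, 233 had the same sign in all 4 matched differences (33.5% of all genes did). In 182 of the 234 the waves did not overlap, against 641 of 5446 genes in all (11.8%). The calls chose differences that were large for their spread, so these counts are a description. Within the 1 title date that holds both waves, all 238 called genes with a value kept their sign. These are the same arrays that made the calls, so they are not independent support. The 249 calls were 117 with set 1 alone and 126 with set 2 alone, 99 with title date as a factor, 20 with matched time pairs as a replicate block, 77 with the spread pooled over time points other than 25, 40 and 55 min (chosen after seeing the data) and 5 with it pooled over all.

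The time points carried unequal weight. Without 45 min 638 genes were called and without 50 min 792, against 29 without 115 min and 15 without 120 min, where the lone sample is assumed to vary like the other wave. Without 1 array the counts were 135, 23, 67 and 77 for 45, 50, 115 and 120 min in set 1, and 23, 193, 42 and 77 in set 2.

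Among the largest differences outside the lists, FAS1, the beta subunit of fatty acid synthase, read -1.82, -1.61, -1.86 and -1.71 in the first wave and -0.80, -0.18, -0.41 and -0.23 in the second. The waves did not overlap, and it rose by 1.35 ± 0.0969 (limma adjusted p = 0.00279). YIL080W and YIL082W-A, open reading frames known here by locus name alone, had the highest levels of the named genes. YIL080W had a mean of 3.45 in the first wave and 2.23 in the second (-1.23 ± 0.0868), and YIL082W-A means of 3.40 and 2.40 (limma adjusted p = 0.0273). PRM7, a pheromone-regulated gene, was far below the reference in both waves, with means of -3.08 and -4.08.

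The step from G1/S into G2/M was compared next, as the change from 15 and 20 min to 45 and 50 min in the first cycle against that from 85 and 90 min to 115 and 120 min in the second. Of 5951 genes tested, 113 were called different in this step by limma (1.9%), 87 with a higher value in the second cycle (1.46%) and 26 with a lower one (0.437%). All 87 fell in the first cycle, 24 of the 26 rose in it, and 106 of the 113 had the smaller step in the second cycle. Over all 5951 genes, 64.2% had the smaller step in the second cycle, and the calls chose large differences, so these counts are a description. The array of 15 min in set 2 carries a letter M in its title where the other arrays used here carry a shared number, and whether it holds the same RNA is not given in the sources used here. Without that array 31 genes were called, with 4 lower in the CLB2 cluster and 6 higher among the MBF targets (an alternative chosen after seeing the data).

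For the CLB2 cluster the step up was smaller in the second cycle. The median rise was 1.37 in the first cycle and 0.70 in the second, and 24 of 26 members had the smaller step in the second (64.2% of all genes did). Of the 26 members 7 were called lower and 0 higher, against 0.437% and 1.46% of all genes tested. HOF1 went from -2.06 and -1.82 at 15 and 20 min to 0.49 and 1.00 at 45 and 50 min, and from -0.36 and -0.74 at 85 and 90 min to 0.30 and 0.53 at 115 and 120 min. It rose by 2.69 in the first cycle and 0.96 in the second, a difference of -1.72 ± 0.288 (limma adjusted p = 0.0351). CDC5 rose by 2.29 and 0.89 (difference -1.40 ± 0.19), SWI5 by 2.35 and 1.16, HST3 by 2.52 and 1.01, CHS2 by 2.69 and 1.19, and IQG1, a scaffold of the contractile ring, by 1.90 and 0.76. CLB2 rose by 2.07 and 1.12 and was not called (limma adjusted p = 0.0671). The starting level differed more than the end level: the median of the cluster was -0.81 before the first wave and -0.23 before the second.

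The MBF targets of late G1 fell less in the second cycle. Of 20 MBF targets 11 were called with a higher value and 0 lower, against 1.46% and 0.437% of all genes tested. The median change was -1.58 in the first cycle and -0.61 in the second. The 13 SBF targets, also late G1 genes, were mixed, with 9 positive and 4 negative differences. CLN2 and RSR1 were called higher and HO lower, and the median change was -0.96 in the first cycle and -0.50 in the second. RNR1, the large subunit of ribonucleotide reductase, went from 2.04 and 2.03 at 15 and 20 min to -0.46 and -0.63 at 45 and 50 min, and from 0.79 and 0.90 to 0.04 and -0.12 one cycle later. It fell by 2.57 in the first cycle and by 0.88 in the second (difference 1.69 ± 0.163, limma adjusted p = 0.0188). The S phase cyclin gene CLB6 fell by 2.16 and 0.58. The cohesin gene MCD1, also a late G1 gene, fell by 2.15 and 0.84. Here too the level before the wave differed, with a median for the MBF list of 1.40 before the first wave and 0.67 before the second. Histone genes had 0 calls, though their median change was 0.81 in the first cycle and -0.19 in the second.

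Outside the cycle lists, 6 of 19 amino acid genes were called with a higher value in the second cycle and 0 with a lower one, against 1.46% and 0.437% of all genes tested. All 6 were genes of arginine synthesis, among them ARG1, ARG3, ARG4 and ARG56. The count was 3 without the array of 15 min in set 2 and 0 without 15, 45, 50, 85, 115 or 120 min. ARG3 went from 2.33 and 2.06 to 0.56 and 0.57 in the first cycle, and from 0.77 and 0.90 to 0.98 and 1.07 in the second. It fell in one and was about level in the other (difference 1.82 ± 0.177, limma adjusted p = 0.0188). MFA1 had the largest difference of the named genes, 3.50 ± 0.586, since it fell by 3.28 after 15 and 20 min and changed by 0.22 in the second cycle. HPF1, a cell wall mannoprotein, differed by -2.18 and SUR7, a protein of plasma membrane eisosomes, by -1.75.

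These calls rested on the spread of few time points. The array ratios were more widely spread over genes at 15 and 20 min (SD 0.58 to 0.80) than at 45, 50, 115 and 120 min (0.33 to 0.53), and with all arrays scaled to one spread 4 genes were called, all 4 higher. The CLB2 cluster then had 0 calls and the MBF list 1, with median differences of -0.59 and 0.80. The 113 calls were 56 with set 1 alone and 8 with set 2 alone, where the CLB2 cluster had 7 and 0 and the MBF list 5 and 3. They were 0 without 15, 45, 50, 115 or 120 min and 1 without 85 min, but 187 without 20 min and 306 without 90 min, and 20 with the replicate block (3 of the CLB2 cluster, 4 of the MBF list).

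**Figure D5:**
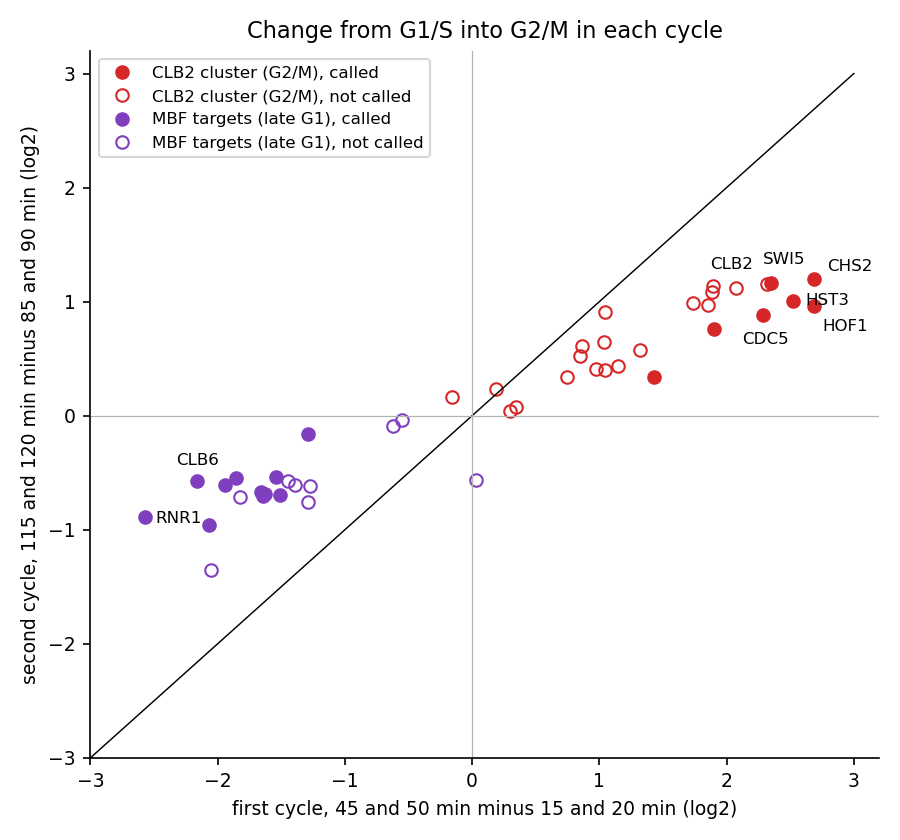
Change from G1/S into G2/M in the first cycle (x axis, mean of 45 and 50 min minus mean of 15 and 20 min, log2) against the second cycle (y axis, mean of 115 and 120 min minus mean of 85 and 90 min), one point per gene for the CLB2 cluster and the MBF targets, filled where the difference was called. In 24 of 26 CLB2 cluster genes the step up was smaller in the second cycle, and 19 of 20 MBF targets had the smaller step in the second cycle.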

How the data were processed

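Per the labels, each array compared Cy5-labelled RNA of a time point with Cy3-labelled asynchronous wild-type RNA. The authors deposited 1 ratio per row and array. The deposited values were read as log10 ratios, because they end at exactly -2 and 2; base and direction are inferred, and the sources used here name no background correction or normalization. Of 6217 rows 12 controls were left out, and 5704 of 6205 open reading frames were matched to names of assembly R64. Values at the limits (7 low, 6 high on the 8 arrays) were set to missing, ratios were turned to log2 and arrays centred on their median. Genes measured at every time point compared were tested with limma 3.58.1 in R 4.3.3, with Benjamini-Hochberg adjustment over all genes and a threshold of 0.05. On simulated data, 98% of 200 genes changed by 1 log2 unit were recovered over 6058 genes, with 11 false calls, and 59.5% with 2 false calls for the step over 5951 genes. The simulated noise was normal and independent, with its spread drawn from the fitted model, and held no time trend, set or date effect. These shares check the fitting and do not give the power or the false calls in the real data. Figures were drawn with matplotlib 3.10.9 (Python 3.11.15).

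The comparison, the 28 gene lists, the tests and the rule for named genes were chosen with earlier results of these data known. The rule takes YOX1, YHP1 and MCM1, all CLB2 cluster genes, the 15 largest called differences each way with one sign in all 4 matched differences, the 10 largest each way for the step, and from every other list the 4 largest and any gene behind a count of 5 or fewer. Alternatives covered single array sets, centring, scaling, missing values, the estimate of the spread, title date, matched pairs as a block, windows, thresholds and left-out arrays and time points. The treatment text gives a 10-min sampling interval, and the design text and labels give 5 min. Some genes of the lists are counted and not reported here by name.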

Additional observations from a re-analysis of the deposited data

Results flagged for a closer look

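In 6 named genes, 1 array of a wave stood far from the other 3, a pattern that chance gives in about 1 of 20 groups of this size. Each of the many named genes gave a group in each wave, so chance alone could give as many cases. AMN1 was at -2.39 on the array of 50 min in set 1, with its neighbour in the first wave at -2.94. In the second wave, CLB6 was at 0.66 on the array of 115 min in set 2, with its neighbour at 0.38. TUB2, beta tubulin, was at 0.52 and MF(ALPHA)1, the alpha factor gene, at 0.31 on the array of 115 min in set 1. HHT1, a histone H3 gene, was at 0.15 on the array of 115 min in set 2. RPL4B, a ribosomal protein gene, was at 0.83 on the array of 120 min in set 1, with its neighbour at 0.58.

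For 20 named genes the step from G1/S into G2/M differed between the 2 cycles by limma's test of the difference itself, at an adjusted p under 0.05. The difference (second minus first) was -1.72 for HOF1, -1.49 for CHS2, -1.40 for CDC5, -1.18 for SWI5 and -1.25 for EGT2. It was -2.18 for HPF1, -1.93 for YNL058C, -1.75 for SUR7, -1.74 for CAR2, the arginine catabolism gene, and -1.39 for AIM44. It was 3.50 for MFA1, 2.34 for MEP2, an ammonium permease gene, 1.82 for ARG3, 1.79 for OPI3, a phospholipid methyltransferase gene, 1.69 for RNR1 and 1.64 for SSU1, a sulfite pump gene. It was 1.59 for CLB6, 1.56 for ACM1, an inhibitor of the anaphase-promoting complex, 1.55 for ARG56 and 1.48 for GIT1, a glycerophosphoinositol permease gene. GIT1 read -3.36 on the array of 45 min in set 1 and 0.21 on that in set 2, and OPI3 -1.88 and 0.11, so the levels of these genes depend on the array set.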

How the results depend on the processing

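The 249 genes called different in level were 41 at an adjusted p under 0.01 and 537 under 0.1. They were 117 with set 1 alone, 126 with set 2 alone, 717 with each array as a sample, 374 with robust variance shrinkage, 99 with title date as a factor, 98 with 35 to 50 against 105 to 120 min, and 67 with 110 and 115 min as the second wave. With the spread pooled over all time points they were 5, and 77 without 25, 40 and 55 min, an alternative chosen after seeing the data. Leaving out 1 time point or array gave 15 to 792. With matched time pairs as a replicate block they were 20. The pairs are matched by time alone, as the labels name no pairing. Counts were 190 to 298 under the other alternatives (no centring, scaling, limits kept, both filters on missing values, and 35, 45 and 50 against 105, 115 and 120 min). The 113 calls for the step were 0 at 0.01, 235 at 0.1, 56 and 8 with set 1 and set 2 alone, 591 with each array as a sample, 4 with scaled arrays, 1 with the spread pooled over all time points, 20 with the replicate block, and 0 to 306 with 1 time point left out. They were 31 without the array of 15 min in set 2, chosen after seeing the data. Among the named genes that were called, directions turned for 4. With 35 to 50 against 105 to 120 min, which brings in 40 min, the level difference was -0.21 for MFA1, 0.69 for PGK1, 0.018 for TDH1 and 0.071 for the glycolysis median. With scaled arrays the step difference was 0.11 for EGT2 and 0.24 for the SIC1 cluster median. The sign of the median turned under at least 1 alternative in 13 of the 28 lists for the level and 10 for the step, among them the CLB2 cluster (to 0.13 at most) and the pheromone response (to -0.047) for the level, and the methionine list for the step (0.19, and -0.21 with scaled arrays). The causes were not tested. With no intensities used here, the signal behind a ratio is unknown.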

Other observations

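Genes of fatty acid synthesis were looked at after FAS1 was seen among the largest differences, so their values are a description of genes chosen after the fact. FAS2, the alpha subunit of fatty acid synthase, read -1.33, -0.90, -1.19 and -0.94 in the first wave and -0.22, -0.04, -0.43 and -0.02 in the second (45 or 115 min set 1 and set 2, then 50 or 120 min set 1 and set 2). ACC1, acetyl-CoA carboxylase, had means of -1.02 and -0.15, and OLE1, the fatty acid desaturase, means of -1.53 and -0.48. All 3 lay below the reference in both waves and nearer to it in the second, with differences of 0.91 for FAS2, 0.87 for ACC1 and 1.05 for OLE1. Of the acyl-CoA synthetase genes, FAA1 was higher in the second wave (0.69, limma adjusted p = 0.0243) and FAA4 differed by 0.31. The phospholipid methyltransferase gene OPI3 differed by 0.36, the acyltransferase gene SCT1 by 0.08, the elongase gene ELO1 by 0.19 and the inositol synthase gene INO1 by -0.09, all not called.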
